A study of Mus musculus with 4 samples.

Results

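Inflammatory and apoptotic caspase genes were read in MN1 leukemic bone marrow against mature myeloid marrow cells. The 8 genes were Casp1, Casp2, Casp4, Casp6, Casp8 and Casp9, with the inflammasome sensor gene Nlrp3 and the adaptor gene Pycard. Every probe set whose platform annotation gave one of these symbols was taken, which made 13 of the 45101 probe sets and 8 of the 18193 named genes. Casp6 had 2 probe sets, Casp9 and Pycard had 3 each, and the other 5 genes had 1. Of the 13 probe sets, 10 were bright enough to be tested. Each gene was read from its brightest probe set, and all 8 genes entered the test with both group means above the lowest mean signal kept, which was 47.6.

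Caspases are proteases with a cysteine in the active site that cut after aspartate, and they are made as inactive precursors. Inflammatory caspases are switched on by inflammasomes, in which a sensor such as NLRP3 gathers the adaptor ASC, the product of Pycard, and caspase-1. Active caspase-1 matures the cytokines interleukin-1 beta and interleukin-18 and cuts gasdermin D, whose fragment forms pores that lyse the cell. Apoptotic caspases are switched on by death receptors through caspase-8 or by cytochrome c from mitochondria through caspase-9. Monocytes, macrophages and neutrophils are known for carrying the inflammasome machinery ready to act. Because caspases are controlled largely by cleavage, an RNA level does not give the activity of the enzyme.

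The study set 2 arrays of bone marrow from mice with MN1 leukemia against 2 arrays of Gr1/Mac1 cells, all on the C57BL/6J strain. Gr1/Mac1 cells are mature myeloid marrow cells that carry the surface antigens Gr1 and CD11b. They were taken as cells of healthy mice from the titles and the series text. The treatment text is the same on samples of both groups. MN1 is a transcriptional coregulator. For the leukemia it was carried by a retrovirus into marrow taken 4 days after 150 mg/kg 5-fluorouracil and stimulated for 48 hours, the GFP-positive cells were sorted and grown on with interleukin-3, interleukin-6 and stem cell factor, and they were then injected into syngeneic recipients given 750 cGy. The recipients also received fresh normal marrow, and whether GFP-positive cells were sorted again before the RNA was made, or animals pooled, or how old the mice were, the sources used here do not say. The design calls the arrays biological replicates. With no array of normal immature cells, an effect of MN1 and the immaturity of the leukemic cells cannot be told apart.

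Levels are MAS5 signals, linear intensities of 1 probe set each. Levels of different probe sets were not compared, except to pick the brightest of a gene and to sum the signals of markers. In such a sum the brightest probe sets weigh most. Log2 fold changes run from mature to leukemic, so that positive values are higher in leukemia. They were taken after adding 16 to every signal, which makes the changes of dim genes look smaller. The SD over the 2 arrays of a group follows the sign ±. Precision is limited by there being 2 arrays a group. A gene is called changed at a Benjamini-Hochberg adjusted p threshold of 0.05 over the 12378 genes tested with limma. The median log2 fold change of all these genes was 0.28.

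Itgam, which encodes CD11b, gave signals of 584 and 306 in leukemic and 4288 and 4407 in mature arrays, while the progenitor antigen gene Cd34 gave 3459 and 5419.7 and 104 and 6.64. All 8 monocyte and macrophage markers were lower in leukemic marrow, beside 15.9% of all tested genes, Fcgr1 having entered the test through the mature arrays. Of 9 measured neutrophil markers, Mmp8, Mmp9 and Cxcr2 were lower and 6 did not pass, and the summed neutrophil signal was 451042 and 260289.5 in leukemic and 436854 and 340967 in mature arrays, so these granulocyte genes were bright in both groups. The 5 measured erythroid markers were higher in leukemic marrow, beside 27.5% of all tested genes. Their summed signals were 28324 and 38000.0 against 1438 and 1664. For beta-actin, the signal at the 3′ end over that at the 5′ end was 3.09 to 3.28 in leukemic and 1.32 to 1.39 in mature arrays. Mature replicate 2 stood apart from the other 3 arrays in sex-linked genes, with a Y-linked Eif2s3y signal of 4409 against 2.51 to 3.01. The part of these differences in the results below was not tested. In RNA of mixed cells, fewer cells of a type and less RNA per cell cannot be told apart.

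The inflammatory caspase genes and Nlrp3 fell in leukemic marrow, and Casp2 and Casp6 rose. Of the 8 genes, 3 were lower, 2 were higher and 3 did not pass, against 43.4% of all tested genes called in either direction, 27.5% higher and 15.9% lower. The 8 genes were chosen with earlier results of these data known, so setting these shares side by side is not a test. Without leukemic replicate 2, 1 gene was higher and 2 were lower. The arrays of the groups did not overlap in any of the 8 genes, as in 74.2% of all tested genes. The median log2 fold change of the 8 genes was -0.58, and single genes ranged from -2.27 to 1.72.

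**Figure D1:**
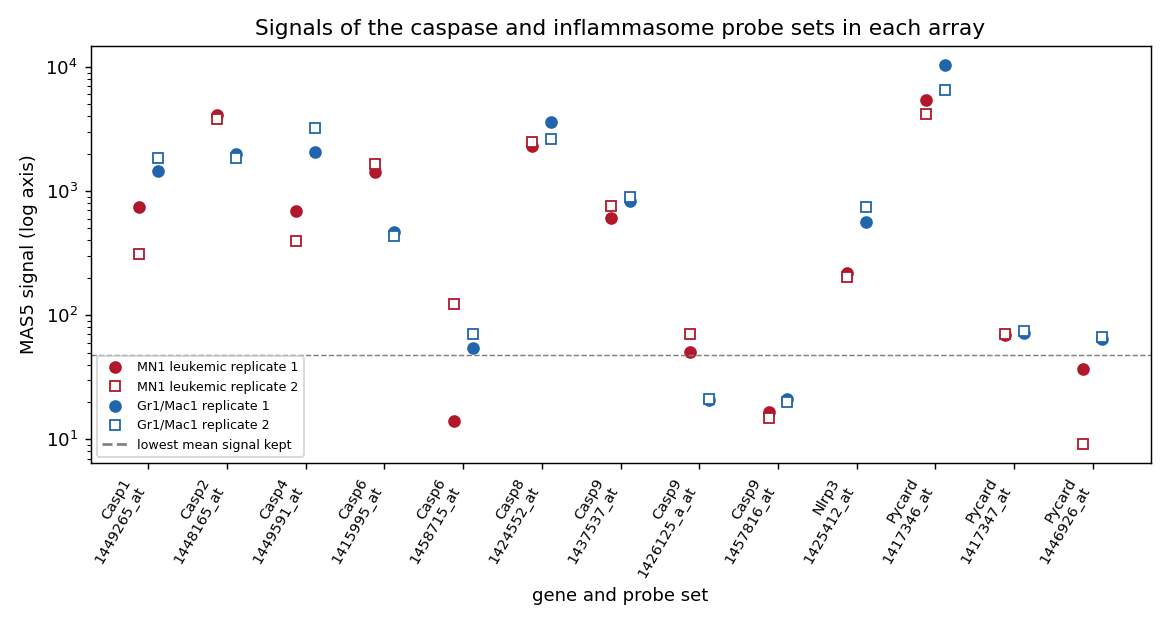
MAS5 signal on a log axis of each of the 13 probe sets, with 1 point for each array, red for MN1 leukemic and blue for Gr1/Mac1, filled for replicate 1 and open for replicate 2. Both red points of Casp1, Casp4 and Nlrp3 lie below both blue points, those of Casp2 and of the brighter Casp6 probe set lie above them, and the dashed line marks the lowest mean signal kept, 47.6.

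Casp4 showed the largest decrease among the 8 genes. It encodes the mouse enzyme also called caspase-11, which binds bacterial lipopolysaccharide in the cytosol and cuts gasdermin D without an inflammasome sensor. Its signal was 694 and 397 in leukemic and 2075 and 3245 in mature arrays. Both leukemic values lay below both mature values, although the replicates of each group also differed from each other by more than for Casp2 or Casp6. The level was 4.82-fold lower in leukemic marrow (log2 fold change -2.27, SE 0.35, limma adjusted p = 0.0029), and 4.39% of tested genes had a lower log2 fold change. The call held in all 16 alternatives, at adjusted p = 1.1e-04 to 0.018.

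Casp1, the gene of the enzyme that inflammasomes activate, read 750.2 and 312 in leukemic and 1455 and 1844 in mature arrays. The leukemic replicates lay 1.22 apart on the log2 scale, the widest gap between replicates among the 8 genes, and still lay below both mature values. Casp1 was 3.30-fold lower (log2 fold change -1.72, SE 0.41, limma adjusted p = 0.015). The call was lost without leukemic replicate 2, the lower of the leukemic pair (-1.11, adjusted p = 0.081). It was also lost when mature replicate 2 was left out (-1.55, adjusted p = 0.076; adjusted p 0.0011 to 0.081 over 16 alternatives). Casp1 and Casp4 are neighbours on chromosome 9 in RefSeq assembly GRCm38.p6.

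Nlrp3 encodes the sensor that responds to potassium loss, crystals and other signs of cell damage. It read 218 and 202 in leukemic and 559.9 and 747 in mature arrays, so that the leukemic replicates lay close together and the groups far apart. The level was 2.94-fold lower in leukemic marrow (log2 fold change -1.55, SE 0.30, limma adjusted p = 0.006). The gene-level call held in all 16 alternatives, at adjusted p = 4.2e-04 to 0.0481, while among single probe sets without leukemic replicate 2 the adjusted p was 0.069.

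Pycard encodes ASC, which links the sensor to caspase-1. Its brightest probe set read 5409 and 4204 in leukemic and 10374 and 6534 in mature arrays. The groups did not overlap, but the mature replicates differed by 0.67 on the log2 scale, and the difference did not pass (log2 fold change -0.79, SE 0.30, limma adjusted p = 0.071). The 95% interval of the difference ran from -1.49 to -0.08. It passed without mature replicate 2 (-1.12, adjusted p = 0.023; adjusted p 0.0013 to 0.32 over 16 alternatives). The second probe set of Pycard read 69.2 and 70.4 in leukemic and 72.0 and 74.1 in mature arrays, close to the lowest mean kept, with a log2 fold change of -0.05 (adjusted p = 0.94). The third, at 36.7 and 9.15 against 64.7 and 66.5, had a mean too low to be tested.

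Casp6 rose the most among the 8 genes. It encodes an effector caspase that is known to cut lamin A. Its brighter probe set read 1416 and 1647 in leukemic and 469 and 438 in mature arrays. Replicates of each group lay close together and the groups did not overlap, and the level was 3.29-fold higher (log2 fold change 1.72, SE 0.24, limma adjusted p = 0.0021). Of all tested genes, 85.1% had a lower log2 fold change. The other probe set was dim and scattered, at 14.0 and 123 in leukemic and 54.0 and 71.2 in mature arrays. There the leukemic values lay on either side of the mature ones, with -0.28 (SE 0.76, adjusted p = 0.81). With the mean of both probe sets the call was lost (0.72, adjusted p = 0.21; adjusted p 4.0e-04 to 0.21 over 16 alternatives).

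Casp2 encodes an initiator caspase that is activated on the platform of PIDD1 and CRADD, called the PIDDosome. It read 4134 and 3817 in leukemic and 1979 and 1838 in mature arrays. The replicates of each group differed by about 0.11 on the log2 scale, and the level was 2.07-fold higher in leukemic marrow (log2 fold change 1.05, SE 0.22, limma adjusted p = 0.0082). The call was lost without leukemic replicate 1 (0.99, adjusted p = 0.075) or replicate 2 (1.11, adjusted p = 0.062), with the value itself little moved. It was also lost with every array at the same median (0.73, adjusted p = 0.11; adjusted p 0.0062 to 0.31 over 16 alternatives).

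The initiators of the classical apoptosis pathways did not pass. Casp8, which death receptors activate and which also restrains necroptosis, read 2299 and 2466 in leukemic and 3583 and 2642 in mature arrays. Leukemic replicate 2 and mature replicate 2 lay close together, and the difference had a 95% interval of -0.95 to 0.21 (log2 fold change -0.37, SE 0.25, limma adjusted p = 0.27). Casp9, the caspase of the apoptosome, read 605 and 765 in leukemic and 833 and 888 in mature arrays at its brightest probe set. The nearest arrays of the groups lay 0.12 apart on the log2 scale, with a 95% interval of -0.94 to 0.27 (log2 fold change -0.33, SE 0.26, limma adjusted p = 0.34).

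The other Casp9 probe sets were too dim to be tested. One, which can match several transcripts by its suffix, read 50.4 and 70.5 in leukemic and 20.7 and 21.2 in mature arrays, the opposite order to the bright probe set. The remaining one read 16.7 and 14.8 against 21.1 and 20.1, so that both groups were near the bottom of the signal range. With no filter on low signals the first had a log2 fold change of 1.04 (adjusted p = 0.24). When each of the 27022 kept probe sets was tested, 5 of the 10 kept member probe sets passed, 1 each for Casp1, Casp2, Casp4, Casp6 and Nlrp3, against 34.9% of all probe sets (21.2% higher and 13.6% lower). The arrays of the groups did not overlap in 9 of these 10, as in 70.0% of all kept probe sets.

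**Figure D2:**
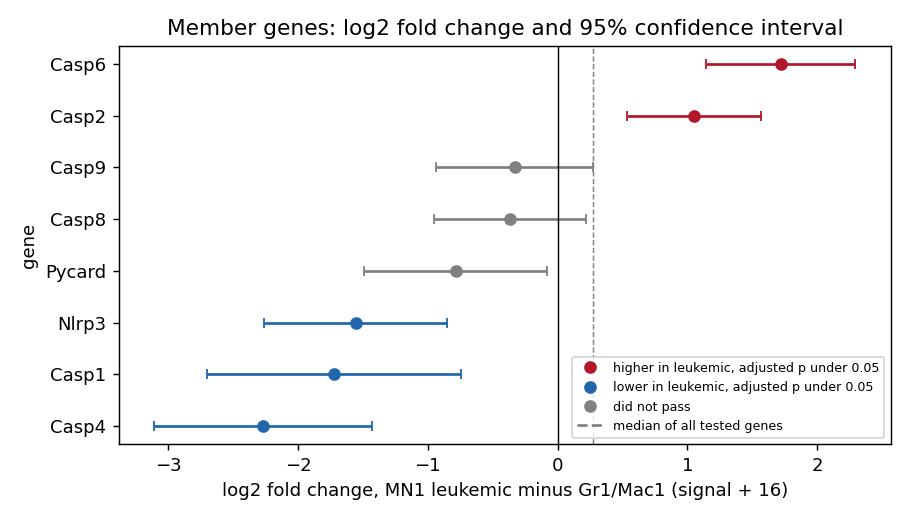
Log2 fold change (leukemic minus mature, signal + 16) of the 8 genes with 95% confidence intervals from limma, in blue where lower, in red where higher and in grey where the gene did not pass. Casp4 lies at -2.27 and Casp6 at 1.72, and the dashed line is the median of all tested genes, 0.28.

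The promoter windows of the genes that fell and rose are shown to set their base composition and motifs side by side. The sets are defined by the direction of the call. RefSeq promoters of assembly GRCm38.p6, from 250 bases before to 50 after a transcript start, were found for all 8 genes, with 2 entries each for Casp4 and Nlrp3. Capitals mark GC boxes (GGGCGG) and the loose kappaB pattern (GGG, any 5 bases, CC), searched on both strands, which may overlap. The first 3 sequences are from genes that fell and the last 2 from genes that rose.
Casp1, chr9:5298267-5298566, plus strand: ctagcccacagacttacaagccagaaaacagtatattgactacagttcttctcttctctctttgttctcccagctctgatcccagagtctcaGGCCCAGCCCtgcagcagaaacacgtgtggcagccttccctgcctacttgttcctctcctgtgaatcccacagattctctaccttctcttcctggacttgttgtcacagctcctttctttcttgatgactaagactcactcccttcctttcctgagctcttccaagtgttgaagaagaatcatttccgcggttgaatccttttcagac
Casp4, chr9:5308599-5308898, plus strand: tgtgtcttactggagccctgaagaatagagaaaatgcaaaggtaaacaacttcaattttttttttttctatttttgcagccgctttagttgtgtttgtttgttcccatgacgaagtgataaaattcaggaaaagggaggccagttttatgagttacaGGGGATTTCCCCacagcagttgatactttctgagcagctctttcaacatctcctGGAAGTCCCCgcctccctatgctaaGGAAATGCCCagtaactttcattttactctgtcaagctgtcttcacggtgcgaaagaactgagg
Nlrp3, chr11:59542436-59542735, plus strand: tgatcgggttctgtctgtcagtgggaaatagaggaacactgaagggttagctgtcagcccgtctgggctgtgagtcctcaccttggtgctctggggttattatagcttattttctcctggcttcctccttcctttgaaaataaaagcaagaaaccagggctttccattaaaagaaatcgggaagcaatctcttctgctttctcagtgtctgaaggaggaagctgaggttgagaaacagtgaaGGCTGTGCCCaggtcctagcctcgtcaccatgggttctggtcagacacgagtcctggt
Casp2, chr6:42264735-42265034, plus strand: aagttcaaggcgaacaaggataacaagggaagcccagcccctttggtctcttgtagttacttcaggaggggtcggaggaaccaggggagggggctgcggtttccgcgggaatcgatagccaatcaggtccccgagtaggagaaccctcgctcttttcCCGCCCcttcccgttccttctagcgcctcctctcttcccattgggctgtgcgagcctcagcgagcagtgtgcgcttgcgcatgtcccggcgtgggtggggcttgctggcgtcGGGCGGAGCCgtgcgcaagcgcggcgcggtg
Casp6, chr3:129901165-129901464, plus strand: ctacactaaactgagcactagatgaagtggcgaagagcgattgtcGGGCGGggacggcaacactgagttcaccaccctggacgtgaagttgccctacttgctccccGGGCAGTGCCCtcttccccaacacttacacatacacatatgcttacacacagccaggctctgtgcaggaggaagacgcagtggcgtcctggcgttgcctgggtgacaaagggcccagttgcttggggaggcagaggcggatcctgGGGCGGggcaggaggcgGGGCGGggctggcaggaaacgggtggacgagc

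A GC box was found in the windows of Casp2 (2 copies), Casp6 (3), Casp9 (4) and Pycard (1), in none of Casp1, Casp4, Casp8 and Nlrp3, and in 35.7% of all 32851 promoter windows. The windows of Casp2, Casp6 and Casp9 held 26, 16 and 28 CpG dinucleotides, with a median of 7 over all windows. Those of Casp1 and Pycard held 3, those of Casp4 and Casp8 held 5, and those of Nlrp3 held 4 and 5. Both genes that rose thus lay above the median CpG count and all 3 that fell lay below it, while of the 3 that did not pass Casp9 lay above it and Casp8 and Pycard below. The kappaB pattern was found in the windows of Casp4 (5 starts, some overlapping), Casp6 and Casp9 (2 each) and Casp1, Casp2 and Nlrp3 (1 each), in neither Casp8 nor Pycard, and in 50.8% of all windows. An interferon regulatory factor pattern (GAAA, any 2 bases, GAAA) and a STAT pattern (TTCNNNGAA) were in none of the 10 windows, against 3.44% and 8.30% of all. The PU.1 pattern AGGAAGT was in the Pycard window and in 9.35% of all windows. A match is a run of letters and not a known binding site.

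Of the 52 tested genes in 8 lists of partners, substrates and inhibitors, 33 were called (63.5%, beside 43.4% of all genes), 11 higher and 22 lower, at a median of -0.65. The lists were written with earlier results of these data known, so the excess over all genes cannot be read as a result. The genes called in the lists of inflammasome sensors and cofactors and of inflammasome outputs were all lower in leukemic marrow, as Casp1 and Nlrp3 were. The output list is a broad one of substrates, pore formers and cytokine antagonists, and all 7 of its tested genes fell, with a median of -1.73. Of 11 tested sensors and cofactors 7 fell and 0 rose, at a median of -1.09, beside 0.28 for all genes, of which 15.9% were lower. Nlrp1a, Nlrp1b, Nlrc4, Naip1 and, among the outputs, Hmgb1 had no probe set naming them alone, and Nlrp6, Nlrp10 and Il1a were too dim to be tested. Without leukemic replicate 2 the calls were 4 of 7 and 3 of 11, while under the 3 other scalings all 7 output genes and 7 to 10 of the sensors and cofactors were lower, the 10 being with scaling to the hybridization controls, where 49.2% of all tested genes were lower.

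Il1b, the gene of the cytokine that caspase-1 matures, read 416 and 449.8 in leukemic and 5624 and 12976 in mature arrays. It was 19.1-fold lower (log2 fold change -4.25, SE 0.39, limma adjusted p = 5.6e-04), although the mature replicates also lay far apart. Il18, the other cytokine precursor, read 231 and 202 against 869 and 555 (log2 fold change -1.62, SE 0.32, limma adjusted p = 0.0072), and the adjusted p was 0.0514 without leukemic replicate 2. Gsdmd, which encodes the pore protein cut by caspase-1 and caspase-11, read 1329 and 903 against 3345 and 2123 (log2 fold change -1.27, SE 0.32, limma adjusted p = 0.017). Its call was lost when leukemic replicate 2 (adjusted p = 0.12) or mature replicate 1 (-0.94, adjusted p = 0.0539) was left out.

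Gsdme, the gene of another gasdermin pore protein, read 1813 and 888 against 6803 and 6016 (-2.32, adjusted p = 0.0026), while its second probe set gave -0.32 (adjusted p = 0.32). Il1rn, which encodes the interleukin-1 receptor antagonist and so works against Il1b, fell as well, from 3232 ± 110.4 to 433 ± 163 (-2.90, adjusted p = 8.1e-04). Among the sensors and cofactors, Nlrp12, a relative of Nlrp3, read 703 and 262 against 2674 and 3591 (-2.80, adjusted p = 0.0031). Pstpip1, whose protein binds pyrin, read 1190.5 and 569.7 against 7109 and 4344 (-2.73, adjusted p = 0.0024). Mefv, the gene of pyrin itself, read 355 and 194 against 1163 and 1037 (-2.0, adjusted p = 0.0038). In each of these 3 genes both leukemic arrays lay below both mature ones. The groups did not overlap in 74.2% of all tested genes.

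Of 6 tested genes listed for the mitochondrial pathway of cell death, 4 rose and 0 fell, at a median of 1.58. Of all tested genes, 27.5% were higher and 15.9% lower. Scaling to the hybridization controls left 2 of the 6 higher and 1 lower, with 49.2% of all tested genes lower. Aifm1, a mitochondrial flavoprotein that can act in cell death, rose from 952 ± 23.2 to 3959.6 ± 369 (2.04, adjusted p = 9.3e-04), and Diablo, an antagonist of the inhibitors of apoptosis, from 402 ± 67.1 to 1473 ± 334 (1.82, adjusted p = 0.0028). The Diablo call was lost when scaled to the hybridization controls (0.52, adjusted p = 0.15). The nuclease gene Endog read 645 and 569.0 in leukemic and 85.0 and 5.30 in mature arrays. Its mature mean of 45.1 lay below the lowest mean kept, so it entered the test through the leukemic arrays, and its value of 3.75 (adjusted p = 0.0055) moved with the pseudocount, to 2.72 with 64. Its other probe set gave 1.53 (adjusted p = 0.015). These proteins also serve in healthy mitochondria. Apaf1, the scaffold that activates caspase-9, read 2369 and 2318 in leukemic and 2624 and 3174 in mature arrays and did not pass (-0.30, adjusted p = 0.33). Xiap, which inhibits caspase-9, read 2093 and 2252 against 3182 and 3687 at its brightest probe set (-0.65, adjusted p = 0.0512). It passed with every array at the same median (-0.97, adjusted p = 0.037) and with the lowest 60% of probe sets left out (adjusted p = 0.045). Without mature replicate 1 the Xiap value was -0.76. Of 5 tested inhibitors of apoptosis, Birc3 fell (-1.44, adjusted p = 0.0039) and the other 4 did not pass, beside 15.9% of all tested genes lower. All 5 were lower when scaled to the hybridization controls, as were 49.2% of all tested genes.

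Around caspase-8 the changes went both ways. Of 8 tested genes 3 rose and 2 fell, beside 27.5% higher and 15.9% lower of all tested genes. Scaled to the hybridization controls, 1 rose and 5 fell, with 49.2% of all tested genes lower. With leukemic replicate 1 or 2 left out, 1 rose and 2 fell. The death receptor gene Fas read 16.7 and 53.3 in leukemic and 939 and 453 in mature arrays (-3.81, adjusted p = 0.002), and Tnfrsf1a, the gene of a tumour necrosis factor receptor, read 2235 and 1134 against 5936 and 6024 (-1.90, adjusted p = 0.0046). Ripk3, whose kinase drives necroptosis when caspase-8 is inactive, read 2428 and 2499 against 548 and 385 (2.38, adjusted p = 9.6e-04). The groups did not overlap in Fas or Ripk3, as in 74.2% of all tested genes. The Ripk3 call held in all 16 alternatives. The mean of the leukemic Fas signals lay below the lowest mean kept, so that Fas entered the test through the mature arrays. Its value moved with the pseudocount, from -2.89 with 64 to -4.40 with 1.

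Fadd, the adaptor that brings caspase-8 to death receptors, rose from 419 ± 60.8 to 763 ± 129 (0.84, adjusted p = 0.0467). Its call was lost in the fit of single probe sets (adjusted p = 0.058), and when leukemic replicate 1 (1.01, adjusted p = 0.13), leukemic replicate 2 (0.67, adjusted p = 0.33) or mature replicate 1 (0.70, adjusted p = 0.09) was left out. It was lost too with quantile normalization (0.57, adjusted p = 0.14), with every array at the same median (0.53, adjusted p = 0.27), and, at adjusted p = 0.067 and 0.072, with no filter and no variance trend. With both Fadd probe sets averaged the value was 0.27 (adjusted p = 0.48), the second probe set being at -0.29. Tnfsf10, the gene of the death ligand TRAIL, rose from 48.7 ± 4.09 to 199 ± 31.4 (1.73, adjusted p = 0.014). Leaving out leukemic replicate 1 (1.88, adjusted p = 0.069) or leukemic replicate 2 (1.58, adjusted p = 0.14) lost that call, as did averaging its probe sets (1.19, adjusted p = 0.0537) and scaling to the hybridization controls (0.60, adjusted p = 0.25). The other 2 probe sets of Tnfsf10 did not pass (0.95, adjusted p = 0.13; 0.90, adjusted p = 0.27). Cflar, an inhibitor of caspase-8, read 830.4 and 733 against 958 and 1974 and did not pass (-0.81, adjusted p = 0.12), and it did without mature replicate 1 (-1.32, adjusted p = 0.0093) or with every array at the same median (-1.12, adjusted p = 0.032).

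Of the platform that activates caspase-2, Pidd1 rose, at 432 and 447 in leukemic and 239 and 124 in mature arrays (1.27, adjusted p = 0.032). The call was lost without leukemic replicate 1 (adjusted p = 0.13), leukemic replicate 2 (0.15) or mature replicate 2 (0.84, adjusted p = 0.06). It was also lost with quantile normalization (0.97, adjusted p = 0.11), every array at the same median (0.96, adjusted p = 0.12), scaling to the hybridization controls (0.013, adjusted p = 0.98) and no filter on low signals (adjusted p = 0.060). Cradd, the other partner, had signals from 129.9 to 137 in the 4 arrays (0.05, adjusted p = 0.93). Among other caspases, the groups overlapped in Casp14, the caspase of skin (-0.06, adjusted p = 0.93). Its brighter probe set, which carries the suffix _x_at, read 358 and 207 in leukemic and 202 and 400.3 in mature arrays. The other read 2.24 and 3.32 against 2.53 and 8.63, too dim to be tested. Casp12, next to Casp4 on chromosome 9, was too dim to be tested, at 48.5 and 24.3 against 7.08 and 51.7.

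Of 12 tested substrates of apoptotic caspases, 3 rose and 5 fell, beside 27.5% higher and 15.9% lower of all tested genes. Scaled to the hybridization controls, 2 rose and 9 fell, with 49.2% of all tested genes lower. Fewer passed without leukemic replicate 2. Lmna, the gene of the lamin that caspase-6 cuts, read 1055 and 1749 in leukemic and 2.25 and 43.4 in mature arrays (5.38, adjusted p = 9.6e-04), with a mature mean of 22.8, below the lowest mean kept, so that it entered the test through the leukemic arrays. Its dimmer probe set without a suffix gave 1.17 (adjusted p = 0.26), and the value of 5.38 moves with the pseudocount. The DNA repair gene Parp1 rose from 437 ± 226 to 2495 ± 134 (2.57, adjusted p = 0.0022), and Dffb, the nuclease that cuts DNA in apoptosis, from 257 ± 25.9 to 507 ± 23.2 (0.94, adjusted p = 0.033). The kinase genes Pak2 (-1.30, adjusted p = 0.0061) and Stk4 (-1.26, adjusted p = 0.0084) and the phospholipid scramblase gene Xkr8 (-0.99, adjusted p = 0.0459) fell. Leaving out leukemic replicate 2 lost these calls and that of Dffb, with adjusted p = 0.056 for Pak2, 0.06 for Stk4, 0.31 for Xkr8 and 0.22 for Dffb. The Dffb call was also lost without leukemic replicate 1 (adjusted p = 0.17) and without mature replicate 1 (0.0503), and the Xkr8 call was lost with any 1 of the 4 arrays removed (adjusted p = 0.0531 to 0.31). With averaged probe sets neither passed, at 0.55 (adjusted p = 0.18) for Dffb and -0.33 (adjusted p = 0.49) for Xkr8, whose second probe set gave 0.33. Dffb was at 0.63 with quantile normalization (adjusted p = 0.11) and with every array at the same median (adjusted p = 0.20). With no filter on low signals the adjusted p was 0.060 for Dffb and 0.077 for Xkr8, and with no variance trend 0.063 for Xkr8.

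**Figure D3:**
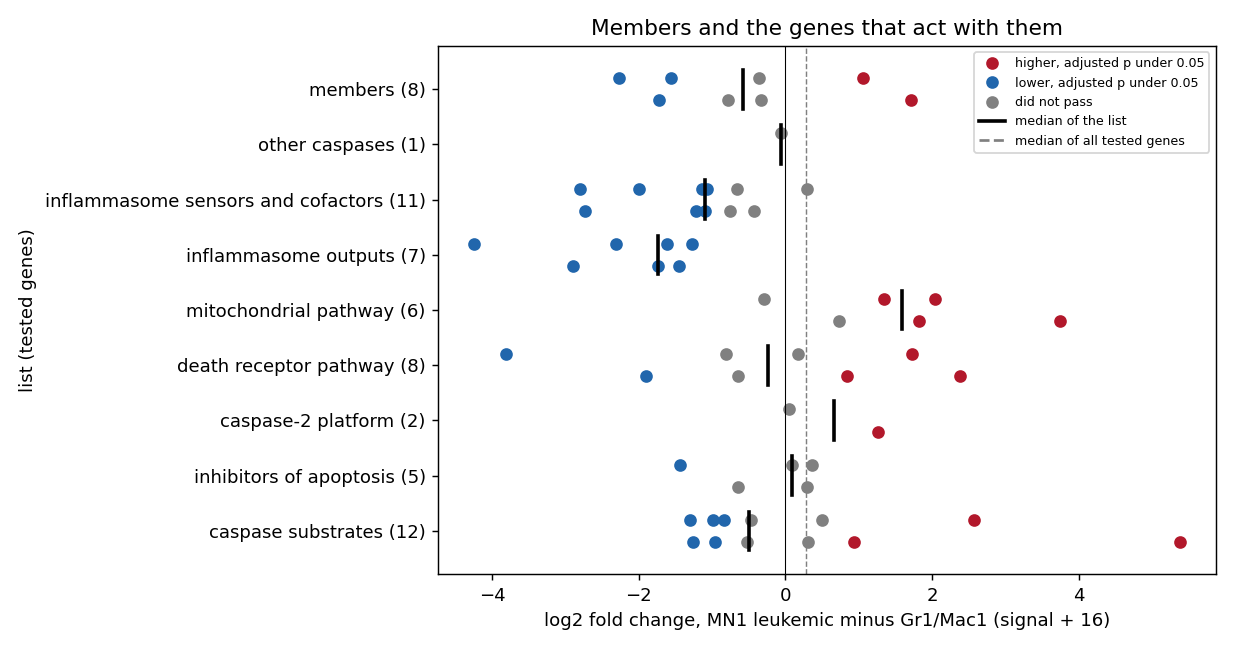
Log2 fold change (leukemic minus mature, signal + 16) of each tested gene, 1 row for each list with its number of tested genes, red where higher, blue where lower and grey where the gene did not pass. The black bar is the list's median, -1.73 for the inflammasome outputs and 1.58 for the mitochondrial pathway, and the dashed line is the median of all tested genes.

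The genes whose pattern over the 4 arrays was nearest to a member were found by the root mean square difference of centred log2 values, as a description with no test. Nearest to Casp6 were Naa15 (3143 and 3708 against 1039 and 961), Ufsp1 (200.2 and 225 against 55.7 and 50.3) and D10Wsu102e (1062 and 1209 against 334 and 325), with differences of 0.0221 to 0.0248 log2 units. Nearest to Casp4 were Ralb (539 and 312 against 1539 and 2482), Ppp1r3b (709 and 429.8 against 2379 and 3617) and Neurl1a (24.6 and 9.79 against 114 and 167), with differences of 0.036 to 0.0681. All 6 were chosen among 12378 genes for this likeness.

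The scaling of the arrays set part of these directions. The hybridization controls, which are added in equal amounts to each sample, had a geometric mean signal of 11918 and 8949.8 in leukemic and 4044 and 4167 in mature arrays. Scaled to them with 1 factor a group, the median of all genes moved from 0.28 to -1.02. Casp1, Casp4, Nlrp3, Pycard, Casp8 and Casp9 were then called lower, as were 49.2% of all tested genes (Casp8 -1.69, adjusted p = 0.0014; Casp9 -1.63, adjusted p = 0.0018; Pycard -2.11, adjusted p = 0.0013). Casp6 kept its direction without passing (0.41, adjusted p = 0.18), and Casp2 turned to -0.27, adjusted p = 0.31. Relative to the median of all genes, Casp2 lay at 0.78 in the main analysis and 0.75 under this scaling, Casp6 at 1.44 and 1.43, and Casp4 at -2.55 and -2.55.

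**Figure D4:**
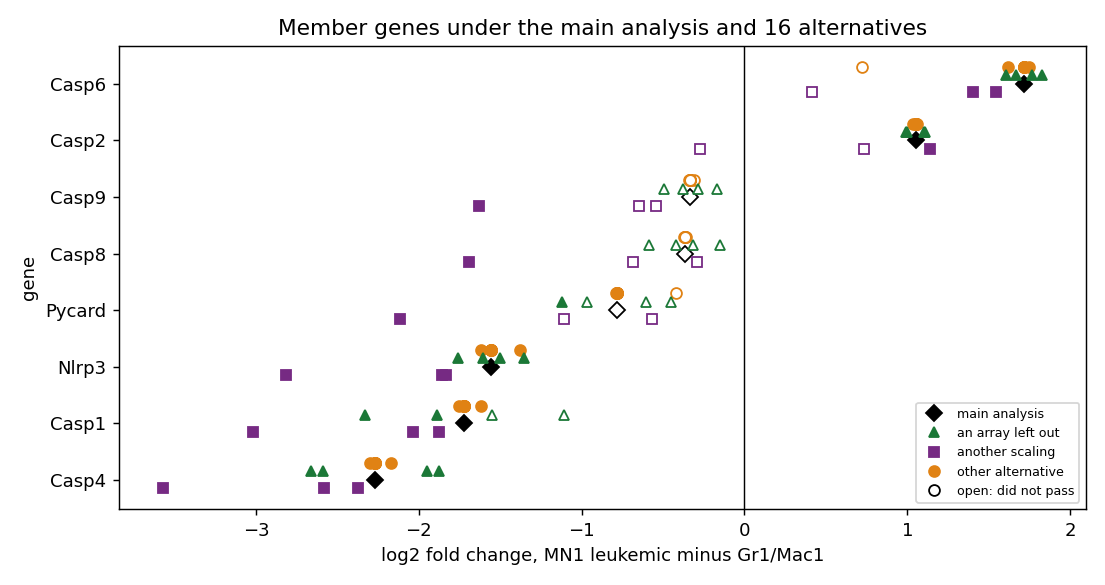
Log2 fold change of each of the 8 genes in the main analysis (black diamond) and 16 alternatives, grouped as an array left out, another scaling and other alternatives, with open symbols where the gene did not pass. Every value of Casp4, Casp1 and Nlrp3 lies below 0 and every value of Casp6 above it, while Casp2 crosses 0 with scaling to the hybridization controls.

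Markers of monocytes and macrophages were lower in leukemic marrow, as were Casp1, Casp4 and Nlrp3. Their summed signal was 13342 and 9328 in leukemic and 75515 and 46327 in mature arrays. Of these markers 8 of 8 were lower, beside 15.9% of all tested genes, and none was at 0. Fcgr1 had a leukemic mean of 37.1, below the lowest mean kept, so it entered the test through the mature arrays. In the leukemic arrays replicate 1 was above replicate 2 for this sum, as it was for Casp1, Casp4, Nlrp3 and Pycard, but not for Il1b. The neutrophil sum had the same order, so it was not particular to monocytes and macrophages. The stem and progenitor sum had it through Mpo, at 36159 and 10511 in leukemic arrays. Kit, Cd34, Flt3, Sox4 and Meis1 were each lower in leukemic replicate 1 than in replicate 2, and Cd93 was higher. In the erythroid sum leukemic replicate 1 was below replicate 2. In the mature arrays replicate 1 was above replicate 2 for the monocyte and macrophage sum, as for Pycard, Gsdmd, Il18 and Pstpip1. It was below replicate 2 for Casp1, Casp4, Nlrp3, Il1b and Nlrp12. The stem and progenitor markers Kit, Cd34, Flt3, Sox4, Meis1 and Cd93, 6 of 7 tested, were higher in leukemic marrow. Of all tested genes, 27.5% were higher, Casp2 and Casp6 among them. Mpo did not pass. Sox4 had a mature mean of 35.5, below the lowest mean kept, and entered the test through the leukemic arrays. The part of either cell type in the caspase values was not tested.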

How the data were processed

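Bone marrow RNA was hybridised to 4 single-colour arrays, 2 in each group. Per the submitters' processing notes the authors used GCOS 1.3.0; the deposited signal intensities are linear MAS5 values, whose scale target, settings and detection calls the sources used here do not name. With 2% trimmed at each end, the mean intensity was 500.003 to 500.004 in the 4 arrays, so each array had been brought to 1 level before deposit. Such linear scaling lets the makeup of the RNA move all other signals, and dim MAS5 signals are noisy.

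Gene names came from the platform annotation, updated through RefSeq gene IDs, which changed 0 symbols. Of the 45101 probe sets, 64 controls were left out; 34945 of the others had 1 gene symbol, 932 several and 9160 none here, and no gene was named from several. The 40% with the lowest mean were dropped, and the brightest probe set stood for a gene. Log2(signal + 16) was fitted in R 4.3.3 with limma 3.58.1 (lmFit, then eBayes with its variance trend; two-sided; 2 residual degrees of freedom, 6.90 after moderation). Benjamini-Hochberg adjustment ran over all 12378 genes, or over all 27022 kept probe sets for values of single probe sets. The fit was tested on simulated data. An exact permutation test of 2 against 2 arrays can give no p below 0.33 and was not used.

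The members and all gene lists were chosen with earlier results of these data known, and no list was tested as a set. Besides the 8 members, the genes named are up to 3 changed genes in each direction of each list, every gene of lists of up to 4, and Apaf1, Fadd, Cflar, Xiap, Gsdmd, Il1b and Il18; for the members with the largest increase and decrease, the 3 genes nearest in pattern are named too. The alternatives were other pseudocounts, filters, scalings and variance models, averaged probe sets for each gene, no probe sets with the suffixes _x_at, _s_at or _a_at, a replicate block, and 1 array removed at a time, which assumes that the lone array left in its group varies like the other group. The groups share the replicate numbers 1 and 2, and no label says that a number pairs arrays. Figures were drawn with matplotlib 3.10.9.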

Additional observations from a re-analysis of the deposited data

How the results depend on the processing

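Of the 8 genes, the directions of Casp1, Casp4, Casp6, Casp8, Casp9, Nlrp3 and Pycard were the same in the 16 alternatives run, and the calls of Casp4 and Nlrp3 were kept in each. With each array left out in turn, the members changed numbered 3 to 5 by gene and 2 to 5 by probe set, and the changed genes 2812 to 5499, the lowest each time without leukemic replicate 2; fewer arrays leave 1 residual degree of freedom. Scaled to the hybridization controls, Casp2 turned to -0.27, by gene and by probe set, Cradd to -1.14, Fadd to -0.46 and Dffb to -0.33, by the construction of that scaling, which lowers all leukemic signals. Cradd also turned, to -0.28 with quantile normalization and -0.24 with every array at the same median, and Xiap turned to 0.080 with the mean of its probe sets. With an array left out the dim Casp6 probe set ranged from -0.43 to 0.83 over 3 of the 4 arrays (above 0 without leukemic replicate 1; without leukemic replicate 2 it was too dim to be tested) and Casp14 from -0.53 to 0.41 (above 0 without leukemic replicate 2, at 0.31, and without mature replicate 2); the cause was not tested. Of the changed genes, 63.3% were higher in the main analysis, 49.4% with every array at the same median and 14.4% scaled to the hybridization controls. Deviations from the group means had a correlation of -0.03 across genes between arrays of the same replicate number. That value cannot show whether the numbers pair the arrays. With a replicate block, 5562 genes, 6 members by gene and 6 by probe set changed, the added member being Pycard (adjusted p = 0.028). Signals near the lowest mean kept, as at the second probe sets of Casp6 and Pycard, limit what those probe sets can show.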
